A study of Drosophila melanogaster with 4 samples.

Results

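Single hybrid Drosophila melanogaster embryos whose ID starts with E2 were compared with embryos whose ID starts with E3, within the stretch of the authors' pseudotime order that both kinds share. The order was read from left to right over the embryo columns, skipping unfertilized eggs, and gave each of 245 embryos a rank. The compared embryos were all E2 and E3 embryos from the rank of the first E3 embryo to the rank of the last E2 embryo, which were 94 of the 245, with 23 E2 and 71 E3 embryos. Both kinds shared their genotype and handling as far as the labels state them. By the labels, all were offspring of virgin DGRP_737 females and DGRP_352 males, 2 inbred lines, were kept at 25 °C and were at most 3 h old. No treatment is named. The labels do not say what the digit after E, or the letter A, B or C that follows it, stands for. Poly(A) RNA of each embryo was counted by CEL-Seq2, in which each captured transcript gets a tag for its embryo and a molecular tag (UMI) that keeps copies of 1 transcript from being counted again, in 4 multiplexed libraries.

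In the Drosophila embryo, RNA loaded by the mother is cleared while the zygotic genome is switched on. The syncytial nuclei are then enclosed by cell membranes (cellularization), gap, pair-rule and segment polarity genes divide the body axis into segments, and mesoderm, neurogenic ectoderm and dorsal ectoderm are laid out around the embryo before gastrulation. Because each gene follows a steep course, embryos of slightly different stage differ in very many genes, and a comparison of 2 kinds of embryo at this time has to be made at equal position along the course. The comparison here asks whether the digit of the ID goes with any difference in RNA once rank and library are taken into account.

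The embryos were spread unevenly over the order. The whole order held 99 E2 embryos, the first at rank 63, and 72 E3 embryos, the last at rank 245. Within the stretch compared, E2 embryos began at rank 154 and had a median rank of 196, and E3 embryos ended at rank 233 and had a median rank of 189. The stretch opened with 10 E3 embryos before its first E2 embryo and closed with 4 E2 embryos after its last E3 embryo. Between ranks 154 and 233 there were 19 E2 and 61 E3 embryos. Libraries 1 to 4 held 5, 5, 8 and 5 of the E2 embryos and 25, 13, 19 and 14 of the E3 embryos, so every library held both kinds. The letters A, B and C held 8, 9 and 6 of the E2 embryos and 22, 29 and 20 of the E3 embryos. No 2 of the compared embryos had identical counts. The IDs do not say which embryos share a mother or a cage, so p-values measure the spread between these embryos.

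An E3 embryo of library 3 at rank 156 stood apart before any comparison. Its autosomal paternal share was 0.735%, within the 0.511% to 1.32% of the 8 unfertilized eggs, while the next lowest E3 embryo had 5.94% and the lowest E2 embryo 11.6%. It held 696079 UMIs and RNA of zygotic genes, with 816 CPM (UMIs of a gene per total UMIs, scaled alike in all embryos) of twi, 205 CPM of sna and 500 CPM of bnk, against at most 9.05, 1.62 and 3.60 CPM in any egg. Zygotic RNA with a paternal share at egg level does not match the cross that the labels name, and the reason was not tested. The embryo was kept, and results without it are given where they differ.

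Whole-embryo measures did not separate the digits. Total UMIs per embryo ran from 296151 to 883379 with a median of 559849 in E2 embryos, and from 169725 to 1351569 with a median of 601677 in E3 embryos. The ranges overlapped, and the deepest and the shallowest embryo were both E3. At equal rank and library, E3 embryos had 0.952 times the UMIs of E2 embryos, with a 95% interval of 0.780 to 1.16 (two-sided permutation test within blocks of rank, p = 0.632; n = 23 and 71). The number of detected genes had a median of 7294 in E2 and 7240 in E3 embryos.

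UMIs per spike-in UMI, which move with the amount of RNA that entered a well, had a median of 1100 in E2 and 1300 in E3 embryos, with ranges of 566 to 4628 and 261 to 3291. The ratio of E3 to E2 at equal rank and library was 1.01, with a 95% interval of 0.801 to 1.27 (permutation test, p = 0.945). The p-values do not show that the digits were alike, and the intervals give the differences that remain possible.

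**Figure D1:**
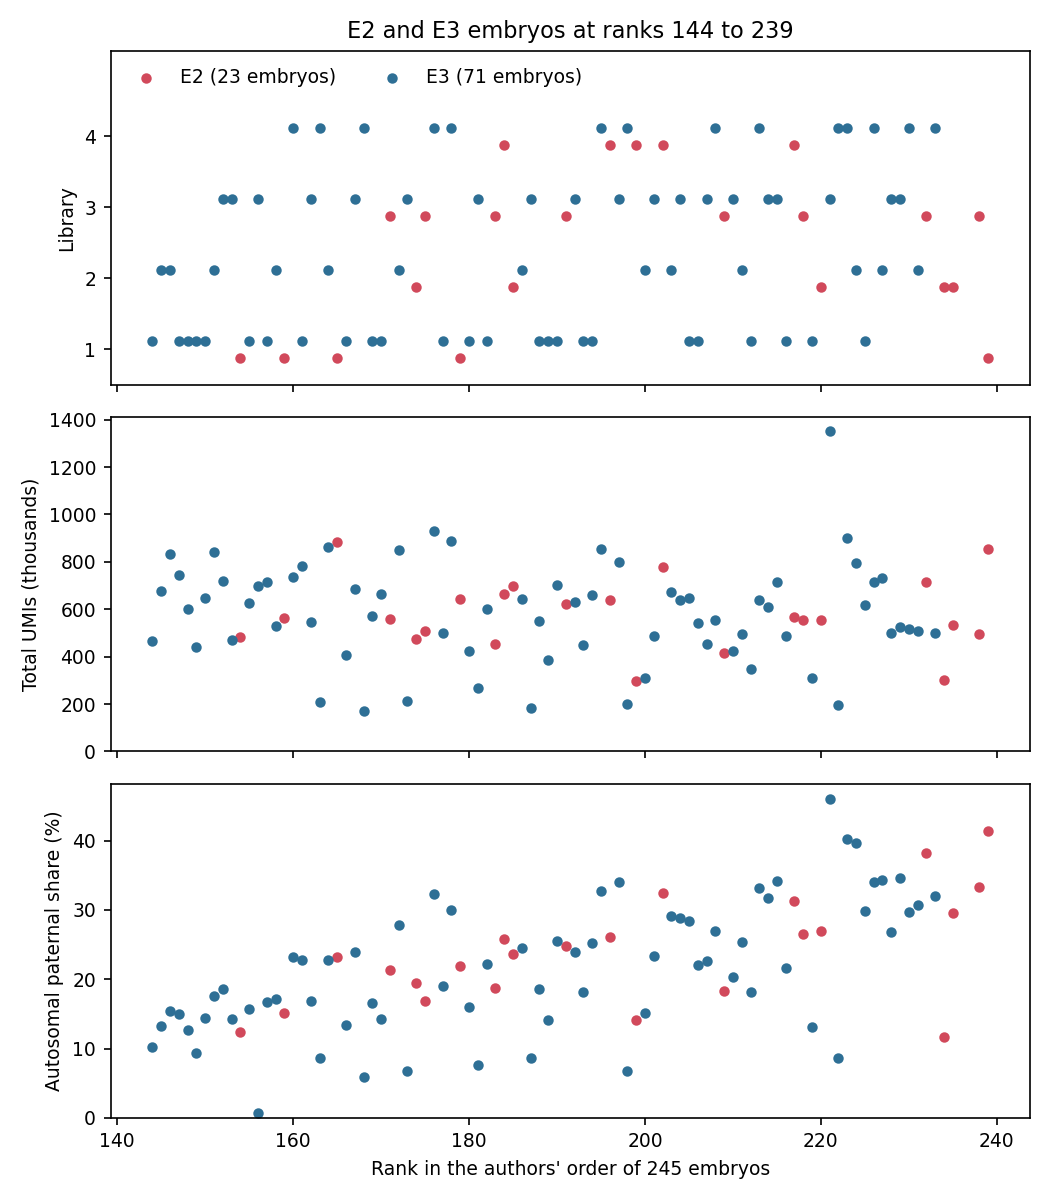
Each point is 1 embryo, E2 in red and E3 in blue, placed by its rank in the authors' order (x axis), with its library, its total UMIs and its autosomal paternal share in percent (y axes, top to bottom). The last 4 E2 embryos stand to the right of the last E3 embryo, and the lowest paternal share is the E3 embryo at rank 156.

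The paternal allele reports transcription by the embryo itself, since eggs carry maternal RNA alone. The autosomal paternal share, the paternal part of all autosomal allele values, was 24.0% ± 7.91 (SD, n = 23) in E2 and 21.6% ± 9.42 (SD, n = 71) in E3 embryos. Early in the stretch, up to rank 175, the median was 18.2% in 6 E2 and 15.2% in 26 E3 embryos. At ranks 176 to 207 it was 24.2% in 8 E2 and 23.0% in 24 E3 embryos, and from rank 208 on it was 29.5% in 9 E2 and 30.8% in 21 E3 embryos. The ranges of E2 and E3 overlapped in each of these stretches. At equal rank and library the share of E3 embryos was lower by 0.00211 percentage points (SE 1.84), with a 95% interval of -3.66 to 3.65 (permutation test, p = 0.999). The share also went with depth, so it is not a reading of stage alone. The E3 embryos at ranks 221, 222 and 223 had 45.9%, 8.64% and 40.3%, at 1351569, 196204 and 901987 UMIs. With depth as a further covariate the difference between the digits was 0.810 percentage points (SE 0.798; permutation test, p = 0.281).

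The X chromosome of the father reaches daughters only. An embryo was counted as without paternal X signal where its X-linked paternal share did not exceed that of any egg. The highest egg had 1.18%, and at or below it were 12 of 23 E2 embryos, 52.2% with an exact 95% binomial interval of 30.6% to 73.2%, and 32 of 71 E3 embryos, 45.1% with an interval of 33.2% to 57.3%. The shares differed by less than these intervals (two-sided Fisher's exact test, p = 0.634). Adjusted over the 4 whole-embryo measures by Benjamini and Hochberg, all 4 p-values were 0.999. The intervals cover counting error only.

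Of the 17807 genes in the count files, 4861 passed the filter on low counts and were tested. A single gene was higher in E3 embryos, E(spl)mgamma-HLH, which is 0.0206% of the genes tested, and a single gene was higher in E2 embryos, Ubi-p63E, again 0.0206% (edgeR's quasi-likelihood test, Benjamini-Hochberg adjusted p under 0.05). At an unadjusted p under 0.05 there were 287 genes, 5.90% of those tested, of which 123 were higher in E3 and 164 in E2. DESeq2 called no gene higher in E3 and 1 higher in E2, with 305 genes at an unadjusted p under 0.05. The median difference over all genes tested was 0.00 on the log2 scale. Scaling between embryos largely holds this median near 0, so it is a reference and no result about the digits.

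Most genes had a small standard error. The median standard error of a gene's E3 minus E2 difference was 0.09 on the log2 scale. For 4857 of the 4861 genes the whole 95% interval lay within 1 log2 unit of no difference, and for 4642 genes, 95.5%, it lay within 0.5. These intervals are not adjusted for the number of genes, and a small difference could still miss the call. CCT6 at -0.27 (SE 0.07) and Mi-2 at -0.19 (SE 0.05) did not pass the test. The course along the order was far larger. The median size of the fitted change between an early and a late rank of the stretch, both given with the processing, was 0.72 log2 units, and it was at least 1 in 1820 genes. By the digit, the median size was 0.06, and 1 gene, E(spl)mgamma-HLH, differed by at least 1. The order had been made from the same transcriptomes, so the change along it is a description, and a difference that moved an embryo in the order would be taken up by its rank.

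**Figure D2:**
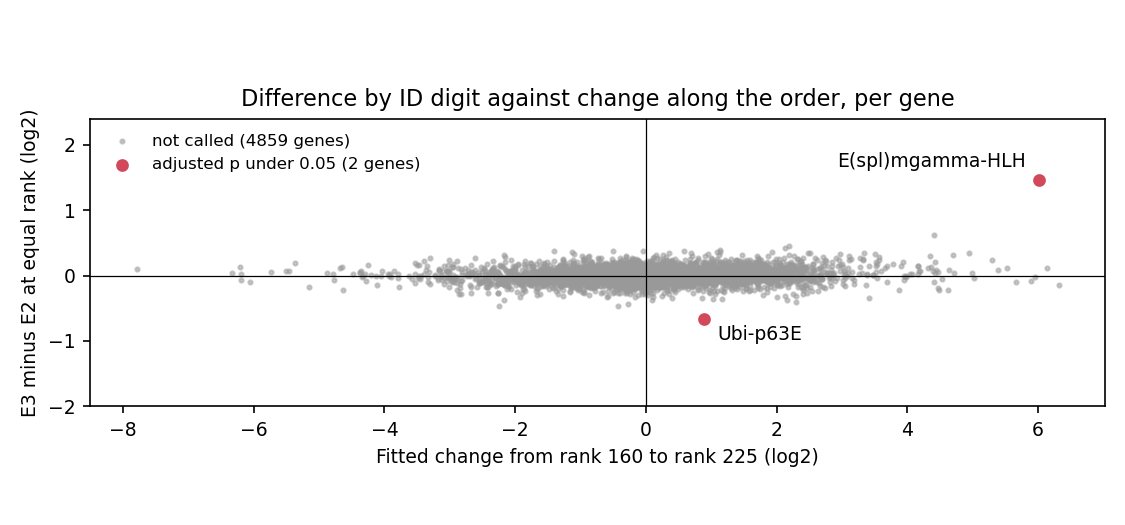
Each point is 1 of the 4861 genes tested, with its fitted change from an early to a late rank of the stretch on the x axis and its E3 minus E2 difference at equal rank and library on the y axis, both in log2 units on the same scale; called genes are red. The cloud is wide along x and narrow along y, with E(spl)mgamma-HLH at 1.47 and Ubi-p63E at -0.66.

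Ubi-p63E (FBgn0003943, 3L:3899259-3903184) encodes polyubiquitin, a chain of ubiquitin units that is cut into the single ubiquitins a cell attaches to proteins. Its RNA was abundant in eggs, between 355 and 501 CPM, and all embryos compared lay below the lowest egg, up to 334 CPM in an E2 embryo. Up to rank 175 it ran from 16.6 to 46.4 CPM with a median of 27.4 in E2 embryos, and from 7.02 to 93.3 CPM with a median of 35.3 in E3 embryos. Here E2 embryos were not the higher group, and the ranges overlapped.

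At ranks 176 to 207 Ubi-p63E ran from 22.1 to 94.7 CPM with a median of 47.8 in 8 E2 embryos, and from 14.1 to 52.5 CPM with a median of 27.9 in 24 E3 embryos. From rank 208 on it ran from 49.3 to 334 CPM with a median of 173 in 9 E2 embryos, and from 19.3 to 162 CPM with a median of 42.4 in 21 E3 embryos. The E2 medians were the higher ones in both ranges of ranks, and the values overlapped. From rank 221 on the level climbed, in E3 embryos from 25.9 CPM at rank 221 to 134 CPM at rank 230 and 162 CPM at rank 233. No E2 embryo stood at ranks 221 to 231, so the medians from rank 208 on mix rank with digit. The 5 E2 embryos from rank 222 on, of which 4 stood after the last E3 embryo of the stretch, ran from 173 to 334 CPM, above the 11 E3 embryos there at 40.8 to 162 CPM. In 21 pairs of an E2 and an E3 embryo at most 5 ranks apart, the E2 embryo was higher in 17. The other 4 pairs were those at E2 ranks 154 to 171. In most pairs the E2 embryo stood at the later rank, so the pairs were not balanced for rank. The pair at ranks 235 and 230, 5 ranks apart within the climb, had 296 and 134 CPM. Where the E2 embryo stood at the earlier rank, at E2 ranks 175, 185, 218 and 220, it was also the higher one. At rank 218, for example, an E2 embryo had 77.7 CPM (43 UMIs) and the E3 embryo at rank 219 had 19.3 CPM (6 UMIs). At ranks 232 and 231 the values were 277 and 140 CPM. Other pairs were nearly level, such as 31.6 and 30.2 CPM (16 and 28 UMIs) at ranks 175 and 176.

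Ubi-p63E was 0.66 log2 units lower in E3 than in E2 embryos at equal rank and library (SE 0.13, 95% interval -0.92 to -0.40; edgeR's quasi-likelihood test, adjusted p = 0.00523). Within ranks 154 to 233 the difference was -0.69 (adjusted p = 0.00687), and by DESeq2 it was -0.65 (adjusted p = 0.0106). The call ended without library 2 (-0.50, adjusted p = 0.820) and without library 4 (-0.71, adjusted p = 0.219), and with a linear rank term or a spline of 6 degrees of freedom (adjusted p = 0.255 and 0.0959). It also ended in the fit on the matched embryos alone (-0.56, adjusted p = 0.9995), at the middle ranks (-0.83, adjusted p = 0.0912), in sums per digit and letter (-1.22, adjusted p = 0.643) and with a block for embryos that share letter and number of the ID (-0.46, adjusted p = 0.656), each with the same direction. The difference between digits moved by -0.11 log2 units per 10 ranks (SE 0.05), which did not pass the test over all genes (edgeR, adjusted p = 0.717).

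Ubiquitin is also encoded by Ubi-p5E and by RpL40 and RpS27A, whose products join ubiquitin to a ribosomal protein. These genes share the ubiquitin unit with Ubi-p63E, and how the authors' counting split shared reads is not given in the sources used here, so the level of Ubi-p63E is uncertain to that extent. None of the 3 passed the test. The E3 minus E2 difference was -0.16 (SE 0.09) for Ubi-p5E, 0.11 (SE 0.06) for RpL40 and 0.03 (SE 0.06) for RpS27A on the log2 scale. Ubi-p5E ran from 232 to 799 CPM in E2 and from 241 to 1046 CPM in E3 embryos, with overlapping values. These ubiquitin genes were looked up after the call of Ubi-p63E was seen.

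**Figure D3:**
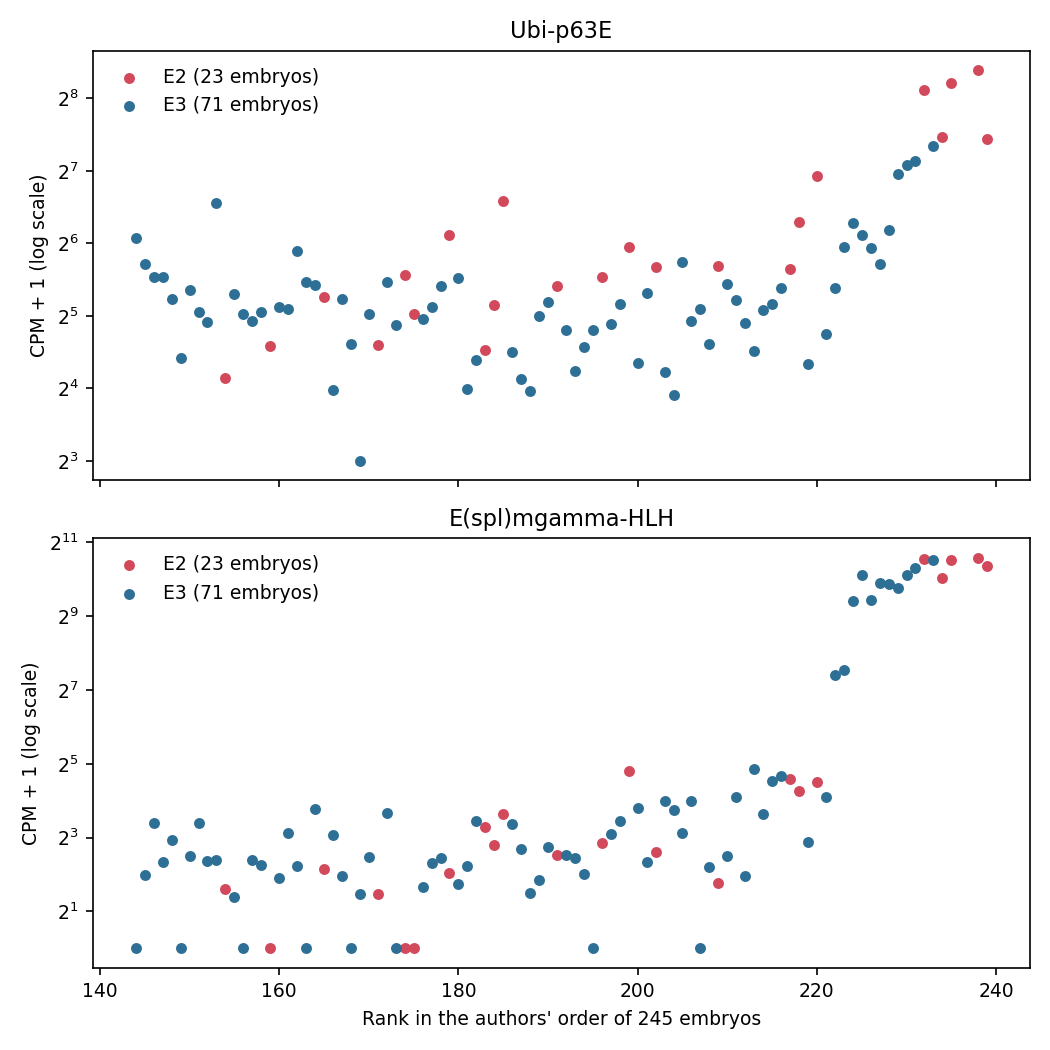
Each point is 1 embryo, E2 in red and E3 in blue, placed by its rank (x axis) and its level of Ubi-p63E (top) or E(spl)mgamma-HLH (bottom) as CPM plus 1 on a log scale, so that a level of 0 stands at 1. The E2 embryo has the higher level of Ubi-p63E in 17 of 21 rank-matched pairs, and in most pairs it stands at the later rank. E(spl)mgamma-HLH steps up from rank 222 on, and the ranks from 221 to 231 hold E3 embryos and no E2 embryo.

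E(spl)mgamma-HLH (FBgn0002735, 3R:25999851-26000761) is a gene of the Enhancer of split complex and encodes a basic helix-loop-helix repressor that acts downstream of Notch signalling, the pathway by which neighbouring cells choose between nerve and skin fate. Its level along the order was close to a switch. Up to rank 221 it ran from 0 to 27.0 CPM in 18 E2 embryos and from 0 to 28.1 CPM in 60 E3 embryos, against 1.35 to 7.19 CPM in eggs. From rank 222 on it ran from 1041 to 1530 CPM in 5 E2 embryos and from 168.2 to 1469 CPM in 11 E3 embryos. The split was placed at the first clear rise of this gene in these embryos, so the low levels before it follow from the cut. From rank 222 on, no embryo of either digit fell back to the earlier levels.

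No E2 embryo stood at ranks 221 to 231, where the level climbed. The last E2 embryo before the climb, at rank 220, had 21.7 CPM of E(spl)mgamma-HLH, and the next, at rank 232, had 1493 CPM. The 10 E3 embryos at ranks 222 to 231 ran from 168.2 to 1252 CPM with a median of 905. At rank 233 the last E3 embryo had 1469 CPM, between the E2 embryos beside it, with 1493 CPM at rank 232 and 1041 CPM at rank 234. The embryos of the 2 digits could therefore not be set side by side during the climb, and outside it their levels overlapped.

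The fit gave E(spl)mgamma-HLH as 1.47 log2 units higher in E3 (SE 0.30, 95% interval 0.88 to 2.06; edgeR's quasi-likelihood test, adjusted p = 0.00523), although the plain mean was higher in E2, 304 CPM ± 580 (SD, n = 23) against 138 CPM ± 346 (SD, n = 71). The call ended within ranks 154 to 233 (0.68, adjusted p = 0.917), with a spline of 6 degrees of freedom (0.94, adjusted p = 0.548), with a linear rank term (0.26, adjusted p = 0.957), by DESeq2 (0.61, adjusted p = 0.787) and without library 1 or library 2 (1.24 and 1.11, adjusted p = 0.108 and 0.820). The direction turned with an order rebuilt from other genes (-1.10, adjusted p = 0.257).

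The genes next in line, chosen after their values were seen, did not pass the test. The third smallest adjusted p was 0.125, shared by CCT6 and Mdh2. CCT6, a subunit of the chaperonin that folds actin and tubulin, had a mean of 167.85 CPM ± 36.5 in E2 and 147 CPM ± 34.1 in E3 embryos, a difference of -0.27 (SE 0.07) on the log2 scale. Mdh2, the mitochondrial malate dehydrogenase of the citric acid cycle, had a mean of 40.6 CPM ± 15.8 in E2 and 30.2 CPM ± 9.33 in E3 embryos, a difference of -0.44 (SE 0.11). E2 was the higher embryo of a pair in 14 of 21 pairs for CCT6 and in 16 of 21 for Mdh2. In most of these pairs the E2 embryo stood at the later rank. Both RNAs were higher in eggs, at a median of 762 CPM for CCT6 and 861 CPM for Mdh2. mats, an activating partner of the Hippo pathway kinase Warts, differed by -0.38 (SE 0.10) and Mi-2, a chromatin remodeller, by -0.19 (SE 0.05), with adjusted p of 0.344 and 0.447 by edgeR. NetB, which encodes a secreted Netrin that guides axons, was the gene with the largest positive difference after E(spl)mgamma-HLH, at 0.62 (SE 0.18; edgeR, adjusted p = 0.450).

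Genes were then read by their roles in the early embryo, from lists of 350 symbols in all, of which 258 genes were tested. Of these, 1 was called higher in E3, E(spl)mgamma-HLH, and none higher in E2, beside 0.0206% of all genes in each direction. The median difference over the listed genes was 0.01 on the log2 scale, beside 0.00 over all genes tested, and 11 had an unadjusted p under 0.05.

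Along the body axis, none of the 9 gap, 9 pair-rule, 8 segment polarity, 6 Hox and 8 head genes tested was called in either direction. The medians were -0.08, 0.01, -0.04, -0.01 and -0.06 log2 units. Gap genes, the first zygotic genes to divide the axis into broad regions, lay between -0.10 for kni and 0.13 for pdm2. Pair-rule genes, which mark alternate segments, lay between -0.13 for slp1 and 0.07 for run, with eve at -0.07 (SE 0.11) and ftz at 0.01 (SE 0.11). Many of these genes differed along the order, with a fitted change upward of at least 1 log2 unit between the early and the late rank in 6 of 8 segment polarity and 6 of 6 Hox genes.

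The segment polarity gene en, which sets the posterior part of each segment, is given as an example. Up to rank 175 en ran from 0 to 7.90 CPM in E2 and from 0 to 9.41 CPM in E3 embryos. At ranks 176 to 207 it ran from 4.66 to 171 CPM in E2 and from 5.99 to 236 CPM in E3 embryos, and from rank 208 on from 202 to 439 CPM and from 142 to 369 CPM. The level was higher at later ranks in both digits, with overlapping values at each range of ranks. Its difference at equal rank was -0.15 (SE 0.12) on the log2 scale, beside a fitted change of 6.31 from the early to the late rank. All 8 segment polarity genes tested had a negative difference, and none was called.

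Among Hox genes, which give segments their identity, Abd-B and Antp had unadjusted p under 0.05 in opposite directions. Abd-B, which acts in the most posterior segments, had a median of 173 CPM in E2 and 158 CPM in E3 embryos from rank 208 on, and a difference of -0.22 (SE 0.10; edgeR, adjusted p = 0.817). Antp, which acts in the thorax, had medians of 195 and 192 CPM there and a difference of 0.21 (SE 0.10; edgeR, adjusted p = 0.824). Neither passed the test.

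Around the embryo, none of 15 dorsal ectoderm, 12 mesoderm and 14 neurogenic ectoderm genes was called. The medians were 0.09, 0.04 and 0.11 log2 units. twi, the activator that founds the mesoderm, had a mean of 724 CPM ± 267 in E2 and 754 CPM ± 143 in E3 embryos and a difference of -0.02 (SE 0.08). sna, its repressor partner, differed by -0.02 (SE 0.06). In the neurogenic ectoderm, l(1)sc, a proneural gene that lets cells become neuroblasts, differed by 0.33 (SE 0.15; edgeR, adjusted p = 0.807), and ind, which patterns the neural columns, by 0.27 (SE 0.13; edgeR, adjusted p = 0.807). Of the dorsal genes, zen lay highest at 0.16 and tsg lowest at -0.10.

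The other genes of the Bearded and Enhancer of split families did not share the call of E(spl)mgamma-HLH. Of 10 tested, 1 was called, and the median was 0.07. E(spl)m7-HLH differed by 0.17 (SE 0.10) and E(spl)m8-HLH by 0.24 (SE 0.16), and neither passed the test. At ranks 176 to 207 E(spl)m7-HLH already ran from 82.3 to 164 CPM in E2 and from 55.9 to 165 CPM in E3 embryos, and from rank 208 on from 84.5 to 453 CPM and from 119 to 548 CPM. Tom, a Bearded family member that inhibits Delta signalling, differed by 0.10 (SE 0.06).

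**Figure D4:**
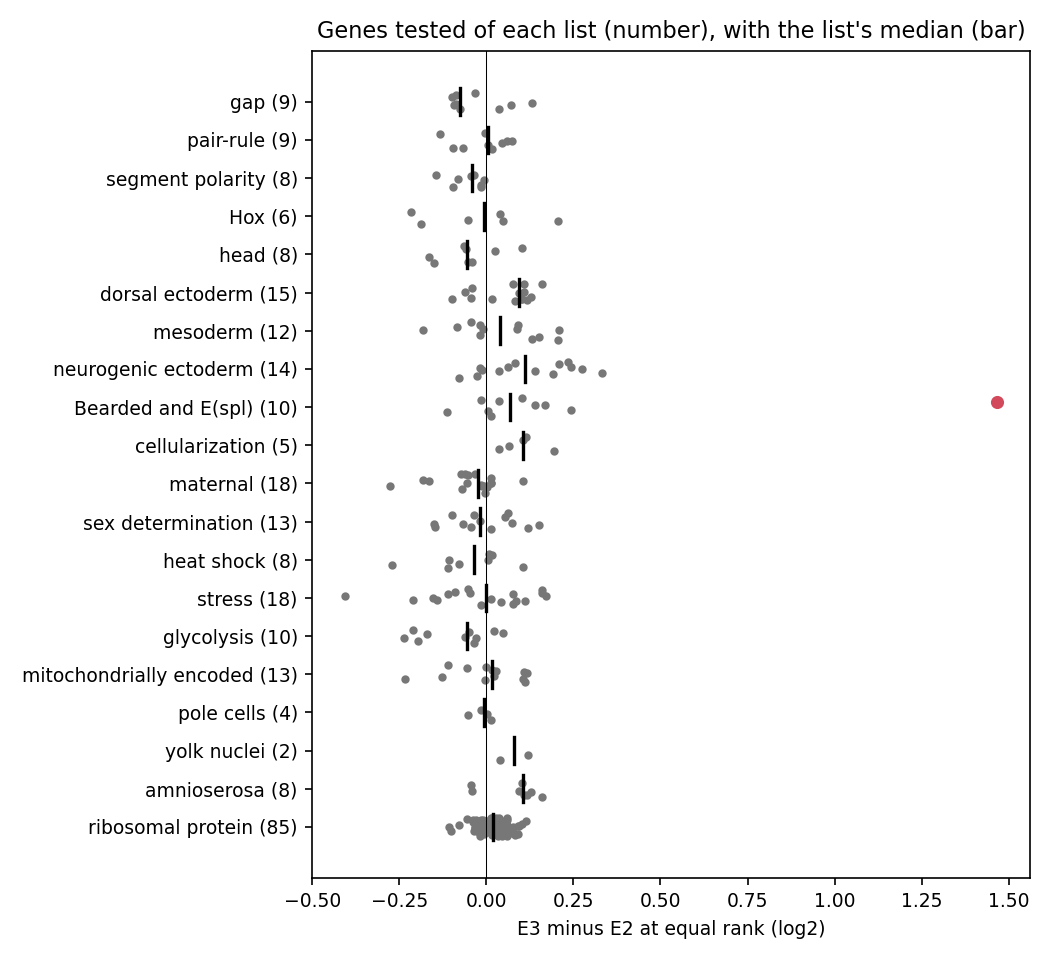
Each point is 1 gene tested, in the row of its list (number of genes tested in parentheses), with its E3 minus E2 difference at equal rank and library in log2 units on the x axis; the bar is the list's median and the called gene is red. Medians lie between -0.08 for gap genes and 0.11 for neurogenic ectoderm, and E(spl)mgamma-HLH at 1.47 lies apart from all others.

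Genes of cellularization were much lower at later ranks, so that their plain means differed between the digits while the levels at equal rank did not pass the test. bnk, which controls the timing of the actin-myosin network that closes the cells, had a mean of 39.9 CPM ± 99.0 in E2 and 159 CPM ± 310 in E3 embryos, and Z600, an inhibitor of mitosis also known as fruhstart, had 655 CPM ± 846 and 1089 CPM ± 1162. At ranks 176 to 207, bnk was between 1.57 and 17.7 CPM in E2 and between 0 and 22.3 CPM in E3 embryos. At equal rank the difference was 0.04 (SE 0.17) for bnk and 0.19 (SE 0.09; edgeR, adjusted p = 0.817) for Z600. None of the 5 cellularization genes tested was called, with a median of 0.10, and all 5 differences were positive.

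Of 18 maternal genes tested, none was called, with a median of -0.02. gnu, a regulator of the syncytial cell cycles, lay lowest at -0.28 (SE 0.14), and plu, which acts with it, highest at 0.11 (SE 0.12). The summed level of the list ran from 2821 to 6917 CPM in E2 and from 2692 to 6682 CPM in E3 embryos, below the 12124 to 15014 CPM of eggs. Of 13 sex determination genes none was called, with a median of -0.02, and Sxl, the switch that is on in females, differed by -0.02 with a wide SE of 0.34.

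Stress and metabolism gave no call besides Ubi-p63E, which is on none of these lists. Of 8 heat shock genes tested none was called, with a median of -0.04, and they lay between -0.27 for Hsp27 (SE 0.17) and 0.10 for Hsp83 (SE 0.07). The summed level of the heat shock list ran from 5280 to 8965 CPM in E2 and from 4281 to 10924 CPM in E3 embryos, with overlapping values. Of 18 stress genes none was called. The lowest was rpr, an activator of cell death, at -0.41 (SE 0.11; edgeR, adjusted p = 0.450). rpr ran from 95.1 to 171 CPM with a median of 114 in E2 and from 53.05 to 178 CPM with a median of 112 in E3 embryos from rank 208 on.

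None of 10 glycolysis genes (median -0.06), 13 mitochondrially encoded genes (median 0.02) and 85 ribosomal protein genes (median 0.02) was called. Abundant genes met a ceiling. No gene had more than 4092 UMIs in any compared embryo, and the top gene of an embryo had between 3307 and 4092 UMIs whatever its depth. Counts of at least 2000 UMIs in some embryo were reached by 129 of the genes tested, among them 8 of the 13 mitochondrially encoded and 37 of the 85 ribosomal protein genes. Differences in these genes, and in total UMIs, may be understated, and the mitochondrial share of UMIs, which had a rank correlation of -0.97 with total UMIs, is not compared. Ubi-p63E reached at most 198 UMIs and E(spl)mgamma-HLH 1110.

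Markers of other cell types and of the mother were read in the same way. Of 4 pole cell genes, 2 yolk nucleus genes and 8 amnioserosa genes tested, none was called, with medians of -0.01, 0.08 and 0.10 log2 units. No egg shell, yolk protein or testis gene was abundant enough to be tested. The summed level of the 14 egg shell genes reached at most 3.62 CPM in E2 and 6.65 CPM in E3 embryos, and 7 of these genes had no UMI in any compared embryo. The 7 testis genes reached at most 2.11 and 4.04 CPM, and the 3 yolk protein genes 6.75 and 4.93 CPM. RNA of follicle cells, maternal fat body or sperm was at or near 0 in both digits. In whole embryos, fewer cells of a type and less RNA per cell cannot be told apart.

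The difference between the digits was also tested for change along the order and between libraries. No gene passed for a digit by rank interaction, 0.0% of 4861, with 292 genes at an unadjusted p under 0.05, and no gene passed for a digit by library interaction, 0.0%, with 208 genes (edgeR's quasi-likelihood test). Without library 1, 7 genes passed for the interaction with rank, and without library 4, 1 gene. Library, letter and the X-linked paternal share, which comes from allele values and is not a label, were tested in the same kind of fit. Library and letter have more than 1 coefficient and the groups differ in size, so the counts cannot be ranked against that of the digit. Library was called in 406 genes, 8.35%. An X-linked paternal share at egg level was called in 589 genes, 12.1%, among them Sxl, lower by 2.57 log2 units in those embryos, and msl-2, higher by 1.46. The letter after the digit was called in no gene, 0.0%, with 459 genes at an unadjusted p under 0.05.

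Over whole profiles, an embryo had similar correlations with neighbours of the other digit and of its own. For each embryo with neighbours of both digits within 5 ranks, Pearson's r of log2(CPM + 1) over the 4861 genes was taken with each neighbour, as a description across genes with no test. For 20 E2 embryos the median r was 0.951 with E2 neighbours and 0.952 with E3 neighbours, and for 65 E3 embryos it was 0.953 with E3 and 0.953 with E2 neighbours. Neighbours of the same digit were the closer ones for 11 of the 20 E2 and 36 of the 65 E3 embryos. With embryos at least 40 ranks away the median r was 0.786 and 0.771.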

How the data were processed

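The authors deposited raw UMI counts per gene and barcode, counted by STARsolo per the file names, whose version is not given in the sources used here. They also deposited a normalized table and an allele table, treated here as scores without a fixed unit because the normalization is not stated. Builds dm6 and BDGP6, Trim Galore 0.6.10, SAMtools 1.17, Picard, GATK 4.4.0.0 and R 4.2.1 are named, per the submitters' processing notes. Embryo IDs came from the authors' barcode table, ranks from the order of the deposited columns, and paternal shares from the deposited allele scores of 2105 autosomal and 348 X-linked genes. The 92 spike-ins were left out of totals and gene tests. Genes were matched to BDGP6.54, release 115 (17735 of 17807 symbols), whose coordinates are given.

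Counts were fitted with edgeR 4.0.16 (R 4.3.3; TMM scaling, filterByExpr by digit, natural spline of rank with 3 degrees of freedom, library and digit; quasi-likelihood F test, Benjamini-Hochberg), called at an adjusted p under 0.05. DESeq2 1.42.0 was an alternative. Single measures were fitted by linear models with the same covariates and tested two-sided with 100000 permutations of the digit within 6 blocks of 16 ranks. CPM divides by all gene UMIs of an embryo. A fit was checked on simulated counts. Embryos were the replicates, and libraries were technical batches. The members, gene lists and tests were chosen with earlier results of these data known. The ranks compared were 144 to 239, the middle ranks were 168 to 215, and the fitted change along the order was read between ranks 160 and 225. Called genes were named by size and p if detected in 50% or more of the higher digit's embryos, along with list genes; others are marked. Ribosomal protein genes are symbols starting with RpL or RpS, and sta.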

Additional observations from a re-analysis of the deposited data

Results flagged for a closer look

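In groups of 4 to 10 values, 13 sets of values over the 8 eggs or the 4 libraries were searched for a value far from the others, and 1 was found, where chance gives about 1 in 20. The median level of Ubi-p63E in E2 embryos was 121 CPM in library 2, while the nearest other library had 49.3 CPM. Library 2 held 5 E2 embryos, whose levels of Ubi-p63E ran from 46.4 to 296 CPM, and its 13 E3 embryos had a median of 41.8 CPM. These E2 embryos stood at ranks 174, 185, 220, 234 and 235, and the E3 embryos between ranks 145 and 231. Ubi-p63E was higher at the latest ranks, with 177 and 296 CPM at ranks 234 and 235. The medians were not taken at equal rank, so library and rank cannot be told apart in them. The call of Ubi-p63E ended without library 2, and the difference between libraries in its E3 minus E2 value did not pass the test over all genes (edgeR, adjusted p = 0.975).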

How the results depend on the processing

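The count of genes higher in E3, 1 as reported, was 0 with a linear rank term, a spline of 6 degrees of freedom, the middle ranks, matched embryos, the rebuilt order, DESeq2, ranks 154 to 233 and sums per digit and letter, and between 0 and 1 without a library in turn. The count higher in E2, 1 as reported, was 0 with a linear rank term, a spline of 6 degrees of freedom, the middle ranks, matched embryos and the sums, 2 with the rebuilt order (Ubi-p63E and CG42342, the latter at -0.58), and between 0 and 1 without a library. The middle ranks held 12 E2 and 36 E3 embryos and the matched set 21 of each, so fewer embryos were tested. Other causes were not tested. E(spl)mgamma-HLH turned to -1.10 with the rebuilt order and to -1.22 with the sums, which carry no rank term, and it did not pass the filter on low counts with the middle ranks, matched embryos, either block or without library 4. Ubi-p63E stayed negative under all 20 alternatives, between -1.22 and -0.46, and passed in 11. The rebuilt order came from the first principal component of 123 late embryos over a random part of the genes, with a rank correlation of at least 0.978 with the deposited ranks.

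Genes whose difference changed with rank numbered between 0 and 7 without a library in turn. RLE scaling, no filter, depth, a term for the paternal X, leaving out the E3 embryo at rank 156 and the letter as covariate left both counts at 1. No alternative brought a whole-embryo measure past its threshold, although all but that of total UMIs changed sign in some. Total UMIs lay between -0.0541 and -0.00315 on the log10 scale, UMIs per spike-in UMI between -0.0421 and 0.0422, the paternal share between -1.74 and 1.26 percentage points, and the share without paternal X between -12.5 and 2.76. The alternatives with ranks 154 to 233, without the embryo at rank 156, with letters, with sums and with blocks were chosen after seeing the data. Of the compared embryos, 16 E2 and 16 E3 share letter, number and library in their IDs, with no label saying that this links them. Their deviations correlated at over 0.1 in 6 of 16 pairs (median 0.08, highest 0.22). No baseline from other embryos was taken, so a link by number was not tested. The main fit did not take the numbers as pairing. With that replicate block, or with the 21 rank-matched pairs as block, the counts were 0 higher in E3 and 0 higher in E2, and Ubi-p63E was -0.46 and -0.63. Depth limits genes of low count, a ceiling near 4092 UMIs limits abundant ones, and the 23 E2 embryos limit all intervals.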

Other observations

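Embryos of the late order outside the comparison gave values of the same 2 genes. The 2 E1 embryos inside the stretch, at ranks 236 and 237, had 215.2 and 315 CPM of Ubi-p63E and 1223 and 1484 CPM of E(spl)mgamma-HLH. The 5 E1 embryos at ranks 240 to 244 had between 371 and 471 CPM of Ubi-p63E and between 1355 and 1666 CPM of E(spl)mgamma-HLH. The last embryo of the order, an E3 embryo at rank 245 with 163287 UMIs, had 141 CPM of Ubi-p63E and 1788 CPM of E(spl)mgamma-HLH. In Ubi-p63E it lay below each of the 7 E1 embryos. They were outside the comparison of E2 with E3, and no test was made on them.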
